A study of Mus musculus with 12 samples.

Results

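The genes described here are 38 mouse genes known to be induced by type I interferon, chosen by symbol for that known role and read in the study's kidney cortex count table. They and the lists set beside them were chosen with earlier results of these data known. Counts of called genes therefore describe these lists and are no independent test. All 38 were among the 24452 symbols of the table and among the 14618 genes tested, and all but Mx1 met the filter on low counts in a control group alone. RNA came from kidney cortex of C57BL/6 mice labelled male and adult, in 12 stranded mRNA libraries, 3 in each of 4 groups. Control_water and Control_captopril mice had received intraperitoneal saline, and were labelled as given water or captopril, an inhibitor of angiotensin-converting enzyme. GN_water and GN_captopril mice had glomerulonephritis (GN, inflammation of the filtering units of the kidney), with the same treatment labels. Disease was brought about over 6 weeks by injecting horse spleen apoferritin (10 mg, 5 times weekly) and lipopolysaccharide (100 micrograms, 3 times weekly), and kidneys were collected at 9 weeks. Apoferritin is a foreign protein against which the mice make antibodies, and lipopolysaccharide, the adjuvant, is a bacterial component that itself activates innate immunity. The captopril dose is not given in the sources used here, nor is it stated whether RNA of several mice was pooled into each library, so p-values measure the spread between these libraries.

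Library totals ran from 14.2 to 22.8 M counts (M, mega), and levels are given as CPM, counts scaled to the TMM-adjusted total of each library. The kidney labels were borne out by the 5 proximal tubule markers, which summed to between 7211 and 11913 CPM. The sex label was not: the 4 Y-linked genes summed to between 121 and 144 CPM in the libraries labelled Control_water and GN_captopril and to at most 0.101 CPM in those labelled Control_captopril and GN_water, where Xist, the RNA of the inactive X chromosome, averaged 345 and 201 CPM. The renin gene Ren1, which rises when angiotensin-converting enzyme is inhibited, had means of 1339.9 CPM under the Control_water label and 74.8 CPM under the Control_captopril label, against the direction that label implies, and 24.8 and 543 CPM in GN_water and GN_captopril. Whether the labels of the control groups are exchanged could not be settled from the files, and groups are named by their labels throughout. The average over both GN groups against both control groups is balanced for the sex-linked RNA, and 2 pairs share it, GN_water with Control_captopril (Xist) and GN_captopril with Control_water (Y-linked). Transcripts of the adrenal cortex were counted 7011 times in Control_captopril replicate 3 and 1658 times in GN_captopril replicate 3, against at most 351 in any other library.

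Type I interferons, the interferon-alpha and interferon-beta proteins, signal through the receptor chains Ifnar1 and Ifnar2 and the kinases Jak1 and Tyk2. The kinases activate a complex holding Stat2 and Irf9 that binds the interferon-stimulated response element (ISRE) in promoters and switches on a shared set of antiviral genes. Interferon-gamma instead acts mainly at gamma-activated sites, and many genes respond to both. In the kidney both tubule and endothelial cells and infiltrating leukocytes can mount the response.

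Promoters are shown because type I interferon acts on its genes through a promoter element and most of the 38 genes moved together. RefSeq promoter windows (250 bases before to 50 after a gene start, GRCm38.p6) were held for 27 of the 38 genes. The ISRE core, written GAAANNGAAA and searched on both strands (TTTCNNTTTC), was in a window of 13 of these 27 genes, beside 3.99% of all 27025 genes with a window. By window it was in 14 of their 33 windows (42.4%), beside 3.44% of all 32851. The gamma-activated site letters TTCNNNGAA, which read the same on both strands, were in a window of 7 of the 27 genes, beside 9.55% of all genes. By window these letters were in 7 of 33 (21.2%), beside 8.30% of all. The 4 genes with the largest change in the GN average among those with a core match were Oas3 (chr5:120777660-120777909, minus strand), Bst2 (chr8:71537473-71537722, minus strand), Isg15 (chr4:156200819-156201068, minus strand) and Oas1a (chr5:120907526-120907775, minus strand). Isg20 (chr7:78913174-78913423, plus strand) had the largest change among those with no match in any of its 3 windows. Isg20 (1.08 on the log2 scale) and Irf1 (0.98), also with no match, changed more than Oas3 (0.96). Some genes with a match changed little, such as Rsad2 (0.10). Zbp1 and Ifi204, which changed most of the 38, had no window. Whether a match goes with the size of the change was not tested. The 250 bases before each start follow, 5′ to 3′ on the strand of the gene, with core matches in capitals.
Oas3: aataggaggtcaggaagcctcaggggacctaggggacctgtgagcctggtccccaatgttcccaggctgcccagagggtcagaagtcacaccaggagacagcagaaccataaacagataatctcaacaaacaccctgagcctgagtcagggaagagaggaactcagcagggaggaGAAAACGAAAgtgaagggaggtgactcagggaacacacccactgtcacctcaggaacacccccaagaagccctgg
Bst2: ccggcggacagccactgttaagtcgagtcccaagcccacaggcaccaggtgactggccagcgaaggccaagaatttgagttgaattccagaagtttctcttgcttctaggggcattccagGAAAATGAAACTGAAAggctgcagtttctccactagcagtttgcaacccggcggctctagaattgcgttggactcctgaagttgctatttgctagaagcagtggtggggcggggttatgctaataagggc
Isg15: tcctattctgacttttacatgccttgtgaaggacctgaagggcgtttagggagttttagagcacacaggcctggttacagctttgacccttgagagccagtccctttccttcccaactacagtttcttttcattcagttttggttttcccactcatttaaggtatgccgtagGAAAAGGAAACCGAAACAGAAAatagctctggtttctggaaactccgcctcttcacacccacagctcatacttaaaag
Oas1a: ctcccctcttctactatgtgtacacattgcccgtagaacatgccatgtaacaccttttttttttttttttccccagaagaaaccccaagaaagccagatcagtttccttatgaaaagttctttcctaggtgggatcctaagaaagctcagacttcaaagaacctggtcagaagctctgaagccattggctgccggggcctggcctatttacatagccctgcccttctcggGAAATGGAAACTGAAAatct
Isg20: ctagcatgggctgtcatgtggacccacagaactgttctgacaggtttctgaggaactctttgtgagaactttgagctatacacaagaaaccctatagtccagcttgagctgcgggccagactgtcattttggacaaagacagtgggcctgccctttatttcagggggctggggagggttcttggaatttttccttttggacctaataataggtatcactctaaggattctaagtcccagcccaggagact

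The Isg15 window holds 3 overlapping matches that begin 78, 72 and 66 bases before the start. Those of Bst2 begin 130 and 124 bases and those of Oas1a 20 and 14 bases before the start, again overlapping. The single match of Oas3 begins 75 bases before it. These starts are those of the windows. The RefSeq gene spans of Oas1a, Oas3 and Isg20 begin further upstream, at 120907544, 120777684 and 78913396, so the printed bases overlap them. Both Oas1a matches lie wholly or partly within the span of that gene. In Bst2 a match to the gamma-activated site letters overlaps the core. A match is a description of these letters, and its use in the kidney was not measured.

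Interferon response genes were higher in GN kidneys when both treatment labels were averaged. Of the 38 genes, 31 rose and 0 fell (quasi-likelihood test of edgeR, Benjamini-Hochberg threshold 0.05), against 16.3% of all genes tested called higher and 14.6% called lower. Their median log2 fold change was 0.66 and single genes ranged from -0.08 to 1.74, while the median of all genes was -0.01. In the same libraries the 10 macrophage markers, all called higher, summed to between 152 and 219.5 CPM in controls, 1134 to 1603 CPM in GN_water and 545 to 1080.1 CPM in GN_captopril. Their part in the interferon gene levels was not tested, and in these bulk samples more cells of a type and more RNA per cell cannot be told apart. For 7 genes (Irf1, Stat2, Zbp1, Ifi204, Parp9, Dtx3l and Xaf1) every GN library lay above every control library, as did 5.38% of all genes tested.

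**Figure D1:**
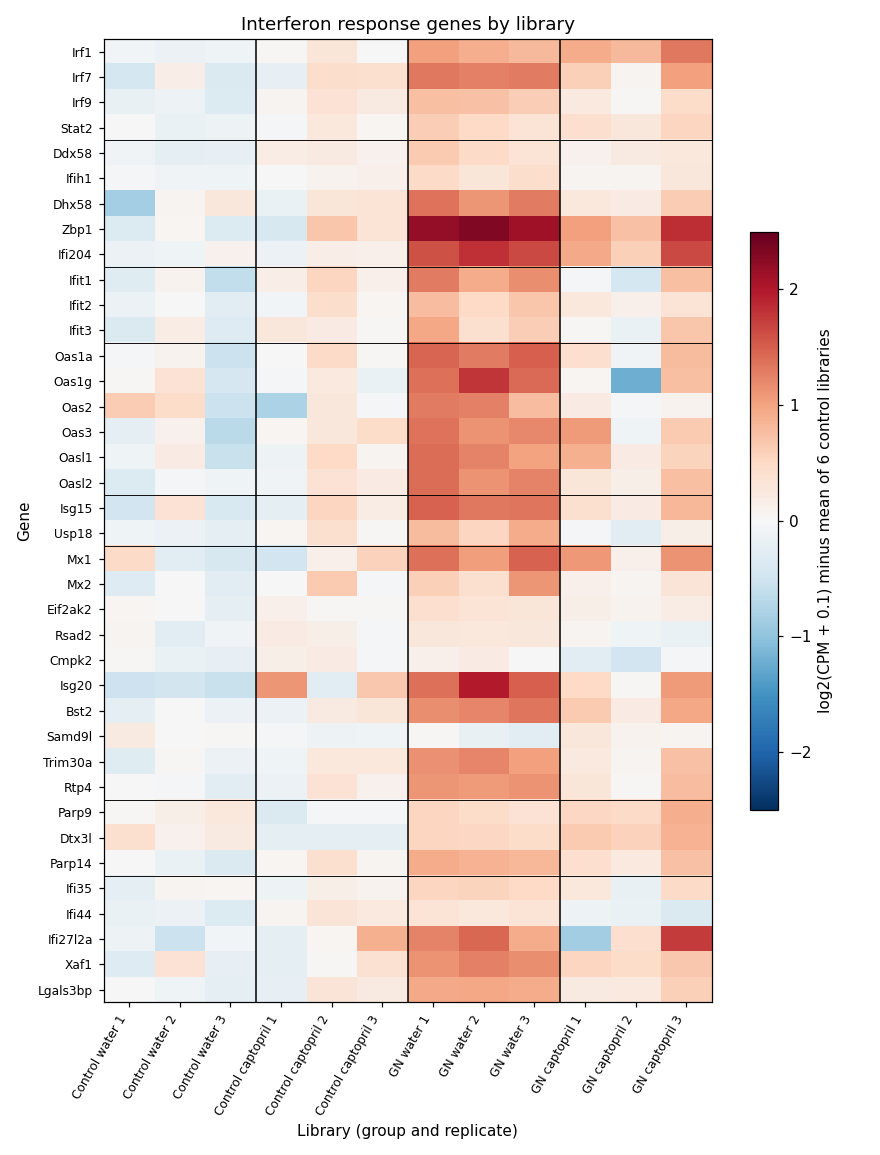
Levels of the 38 genes (rows, grouped by role) in the 12 libraries (columns), as log2(CPM + 0.1) minus the mean of the 6 control libraries, with red above and blue below that mean. The GN_water columns are red for most genes, the GN_captopril columns are paler, and GN_captopril replicate 3 is the highest of its group for 32 genes.

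Among the transcription factors of the response all 4 rose. Irf1, a factor induced by both interferon types (chromosome 11, 53770014 to 53778374 of mm10), was at 19.0, 18.1 and 18.6 CPM in Control_water, 20.4, 24.6 and 20.0 CPM in Control_captopril, 40.9, 37.6 and 35.4 CPM in GN_water and 38.4, 35.3 and 49.9 CPM in GN_captopril. Every GN library exceeded every control, and both GN groups overlapped one another (log2 fold change 0.98 ± 0.08 (SE), adjusted p = 3.14e-06). Stat2, the partner that gives the interferon complex its type I specificity, was at 16.4, 14.7 and 15.2 CPM in Control_water, 16.2, 19.9 and 17.0 CPM in Control_captopril, 25.4, 23.4 and 20.9 CPM in GN_water and 22.1, 20.1 and 23.8 CPM in GN_captopril, again with no GN library as low as a control (log2 fold change 0.45 ± 0.07 (SE), adjusted p = 3.52e-04). Irf9, the DNA-binding subunit of that complex, was at 14.9, 15.5 and 13.4 CPM in Control_water, 17.8, 21.8 and 19.8 CPM in Control_captopril, 28.5, 28.4 and 26.0 CPM in GN_water and 20.1, 17.3 and 23.4 CPM in GN_captopril. The GN_captopril libraries of Irf9 overlapped those of Control_captopril, and the GN_water libraries lay above all others (log2 fold change 0.47 ± 0.08 (SE), adjusted p = 4.24e-04). Irf7, the factor that amplifies interferon production, ranged from 10.7 to 19.8 CPM over the 6 control libraries and 15.2 to 36.3 CPM over the 6 GN libraries (log2 change 0.93 ± 0.16 (SE), adjusted p = 6.50e-04).

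The sensors of foreign nucleic acid held the 2 largest changes among the 38 genes, and all 5 rose. Zbp1, which recognises Z-form nucleic acid and can trigger inflammatory cell death (chromosome 2, 173206612 to 173218959), was at 1.68, 2.25 and 1.68 CPM in Control_water, 1.62, 3.55 and 2.78 CPM in Control_captopril, 10.2, 11.1 and 9.69 CPM in GN_water and 4.52, 3.68 and 8.04 CPM in GN_captopril. The lowest GN library stood just above the highest control, and GN_water was the highest group throughout (log2 fold change 1.74 ± 0.21 (SE), adjusted p = 4.44e-05, a fold of 3.35). Ifi204, a DNA sensor of myeloid cells, was at 3.72, 3.82 and 4.45 CPM in Control_water, 3.72, 4.65 and 4.55 CPM in Control_captopril, 12.6, 14.9 and 13.2 CPM in GN_water and 8.10, 6.31 and 13.1 CPM in GN_captopril (log2 fold change 1.42 ± 0.15 (SE), adjusted p = 1.85e-05). GN_captopril replicate 3 reached the GN_water level for Ifi204 while the other two libraries of its group did not. Ddx58, which encodes the RNA sensor RIG-I, was at 24.1, 21.6 and 22.2 CPM in Control_water, 29.2, 30.1 and 27.8 CPM in Control_captopril, 40.1, 35.6 and 32.5 CPM in GN_water and 27.6, 29.9 and 30.9 CPM in GN_captopril, with the GN_captopril libraries at the level of Control_captopril (log2 fold change 0.35 ± 0.06 (SE), adjusted p = 5.26e-04). Its relatives Ifih1 (MDA5) and Dhx58 (LGP2) changed by 0.28 ± 0.06 (SE) and 0.81 ± 0.18 (SE) on the log2 scale.

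All 3 IFIT genes, whose proteins act against viral RNA and its translation, rose by smaller amounts. Ifit1 was at 4.93, 6.55 and 4.0 CPM in Control_water, 6.86, 8.98 and 6.73 CPM in Control_captopril, 15.2, 11.8 and 13.8 CPM in GN_water and 6.04, 4.5 and 10.4 CPM in GN_captopril. Its GN_water libraries lay above all others, and 2 of the 3 GN_captopril libraries fell within the range of the controls (log2 fold change 0.63 ± 0.18 (SE), adjusted p = 0.0174). Ifit2 was at 10.8, 11.8 and 9.80 CPM in Control_water, 11.4, 16.2 and 12.3 CPM in Control_captopril, 20.2, 16.9 and 19.2 CPM in GN_water and 14.3, 13.0 and 15 CPM in GN_captopril (log2 fold change 0.44 ± 0.09 (SE), adjusted p = 0.00266). Ifit3 was at 19.2, 28 and 19.8 CPM in Control_water, 30.2, 28.3 and 25.1 CPM in Control_captopril, 48.3, 32.5 and 37.7 CPM in GN_water and 25.4, 21.9 and 40.0 CPM in GN_captopril (log2 fold change 0.44 ± 0.15 (SE), adjusted p = 0.0381). GN_captopril replicate 3 lay within the GN_water range of Ifit3 and the other two libraries within that of the controls. The Ifit3 call was lost in 12 of 19 alternative analyses, among them those without replicate 1 or 3 of Control_water, any replicate of Control_captopril, replicate 1 or 3 of GN_water or replicate 3 of GN_captopril (0.29 on the log2 scale without the last). Its near copy Ifit3b may share reads with it. Ifit1 lost its call without both libraries rich in adrenal transcripts (adjusted p = 0.0721).

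Of the 6 oligoadenylate synthetase genes, a family whose active enzymes switch on the RNA-degrading enzyme RNase L, 4 rose. Oasl2 was at 7.40, 9.10 and 8.64 CPM in Control_water, 8.84, 12 and 10.8 CPM in Control_captopril, 24.7, 20.6 and 22.3 CPM in GN_water and 11.6, 10.4 and 15.7 CPM in GN_captopril (log2 fold change 0.84 ± 0.11 (SE), adjusted p = 8.31e-05). Oas1a was at 3.96, 4.37 and 2.77 CPM in Control_water, 4.04, 5.71 and 4.20 CPM in Control_captopril, 11.4, 10.2 and 11.6 CPM in GN_water and 5.51, 3.84 and 7.10 CPM in GN_captopril (log2 fold change 0.90 ± 0.15 (SE), adjusted p = 6.71e-04). Oasl1 was at 2.23, 2.79 and 1.61 CPM in Control_water, 2.20, 3.45 and 2.53 CPM in Control_captopril, 6.46, 5.84 and 4.94 CPM in GN_water and 4.52, 2.80 and 3.59 CPM in GN_captopril (log2 fold change 0.89 ± 0.17 (SE), adjusted p = 0.00135). For each of these, every GN_water library exceeded every other library, and GN_captopril replicate 2 lay within the control range. Oas3, with 0.451 to 1.11 CPM over the 6 control libraries and 0.713 to 2.15 CPM over the 6 GN libraries, rose by 0.96 ± 0.22 (SE) on the log2 scale. Oas1g and Oas2 did not pass the test. Oas1g ranged from 0.451 to 0.850 CPM over the 6 control libraries and 0.219 to 2.47 CPM over the 6 GN libraries (log2 change 0.82 ± 0.30 (SE), adjusted p = 0.0527), and Oas2 from 0.583 to 1.72 CPM over the 6 control libraries and 1.04 to 2.79 CPM over the 6 GN libraries (log2 change 0.55 ± 0.24 (SE), adjusted p = 0.0996). Oas1g passed with DESeq2 (adjusted p = 0.0471), with limma on log2(RPKM + 0.1) (adjusted p = 0.0165) and without GN_captopril replicate 2 (edgeR adjusted p = 0.00623). The Oas1 genes are close copies in 1 cluster on chromosome 5, and reads may be divided among them.

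Isg15, a ubiquitin-like protein attached to other proteins, and Usp18, the protease that removes it and also blocks the type I receptor, both rose. Isg15 (chromosome 4, 156199424 to 156200818) was at 2.93, 5.34 and 3.16 CPM in Control_water, 3.54, 6.03 and 4.70 CPM in Control_captopril, 11.6, 10.4 and 10.6 CPM in GN_water and 5.51, 4.77 and 7.46 CPM in GN_captopril. GN_water was again above all other libraries, and GN_captopril overlapped both control groups (log2 fold change 0.91 ± 0.17 (SE), adjusted p = 0.00120). Usp18 was at 3.86, 3.76 and 3.48 CPM in Control_water, 4.31, 5.53 and 4.25 CPM in Control_captopril, 7.28, 6.08 and 8.01 CPM in GN_water and 3.99, 3.46 and 4.59 CPM in GN_captopril. Its GN_captopril libraries overlapped both control groups, and its GN_water libraries lay above all others (log2 fold change 0.35 ± 0.11 (SE), adjusted p = 0.0304). The call was lost in 7 of 19 alternatives, including those without Control_water replicate 3, Control_captopril replicate 1 or 3, GN_water replicate 1 or 3 and GN_captopril replicate 3.

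Among the other antiviral effectors 6 of 10 rose. Bst2, the tetherin that holds budding virus at the cell surface, was at 14.5, 16.9 and 15.3 CPM in Control_water, 15.3, 19.8 and 20.8 CPM in Control_captopril, 38.1, 39.5 and 43.2 CPM in GN_water and 26.6, 19.6 and 33.3 CPM in GN_captopril (log2 fold change 0.94 ± 0.11 (SE), adjusted p = 4.26e-05). Trim30a, a restrainer of innate signalling, was at 6.01, 7.52 and 6.70 CPM in Control_water, 6.82, 8.89 and 8.85 CPM in Control_captopril, 16.4, 17.4 and 15.2 CPM in GN_water and 8.77, 7.73 and 12.3 CPM in GN_captopril (log2 fold change 0.75 ± 0.11 (SE), adjusted p = 2.94e-04). Rtp4 was at 5.45, 5.34 and 4.58 CPM in Control_water, 4.94, 7.05 and 5.97 CPM in Control_captopril, 11.9, 11.6 and 12.1 CPM in GN_water and 6.78, 5.60 and 9.40 CPM in GN_captopril (log2 fold change 0.74 ± 0.12 (SE), adjusted p = 6.05e-04). In all 3 genes the GN_water libraries stood clear of the rest, and GN_captopril replicate 3 was the highest of its group. Isg20, an RNA exonuclease, rose by 1.08 ± 0.23 (SE), Mx1, a dynamin-like GTPase that is defective in C57BL/6 and most laboratory strains, by 1.10 ± 0.28 (SE), and Eif2ak2, the RNA-dependent kinase PKR, by 0.24 ± 0.06 (SE) on the log2 scale.

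The 4 effectors that did not pass the test ranged from low to the most abundant. Rsad2, which encodes viperin, ranged from 30.0 to 42.1 CPM over the 6 control libraries and 32.6 to 44.5 CPM over the 6 GN libraries (log2 change 0.10 ± 0.06 (SE), adjusted p = 0.270). Its genomic neighbour Cmpk2, a nucleotide kinase, ranged from 18.0 to 23.8 CPM over the 6 control libraries and 14.8 to 23.7 CPM over the 6 GN libraries (log2 change -0.08 ± 0.08 (SE), adjusted p = 0.463). Samd9l, an antiviral and growth-restraining gene, ranged from 184 to 234 CPM over the 6 control libraries and 168 to 242 CPM over the 6 GN libraries (log2 change 0.00 ± 0.06 (SE), adjusted p = 0.967), and its value lay below 0 under the RLE scaling of edgeR and with DESeq2. Mx2 was near 1 CPM, from 0.559 to 1.20 CPM over the 6 control libraries and 0.768 to 1.68 CPM over the 6 GN libraries (log2 change 0.47 ± 0.22 (SE), adjusted p = 0.124). Per kilobase of annotated exon, the mean level in Control_water was highest for Samd9l at 39.4 CPM per kilobase, ahead of Lgals3bp at 26.4, Ifi27l2a at 22.6 and Bst2 at 17.3, and lowest for Oas3 at 0.0921. In GN_water the order of the top 4 was Ifi27l2a at 61.7, Lgals3bp at 54.9, Bst2 at 44.6 and Samd9l at 33.7 CPM per kilobase.

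Parp9 and Dtx3l, which form a complex of an ADP-ribosyltransferase and a ubiquitin ligase, and Parp14, a relative of Parp9, all rose. Dtx3l was at 18.0, 14.7 and 16.0 CPM in Control_water, 11.4, 11.5 and 11.6 CPM in Control_captopril, 19.9, 19.7 and 18.7 CPM in GN_water and 21.6, 20.5 and 25.0 CPM in GN_captopril (log2 fold change 0.60 ± 0.06 (SE), adjusted p = 1.53e-05). Parp9 was at 21.2, 22.9 and 24.9 CPM in Control_water, 16.1, 20.3 and 20.4 CPM in Control_captopril, 30.1, 28.6 and 26.6 CPM in GN_water and 29.9, 29.0 and 39.2 CPM in GN_captopril (log2 fold change 0.55 ± 0.08 (SE), adjusted p = 3.30e-04). For both genes Control_captopril was the lowest group and GN_captopril the highest, a different order from most genes here. The genes lie on opposite strands and overlap by 558 bases in the annotation, and whether counting used the strand is not given in the sources used here, so reads in the overlap cannot be told apart. Parp14 was at 18.3, 16.4 and 14.4 CPM in Control_water, 19.2, 24.5 and 19.4 CPM in Control_captopril, 35.4, 33.8 and 33.1 CPM in GN_water and 24.8, 21.9 and 30.6 CPM in GN_captopril, with GN_water highest (log2 fold change 0.67 ± 0.09 (SE), adjusted p = 1.02e-04).

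Of the remaining 5 genes 4 rose. Lgals3bp, a secreted glycoprotein, was at 81.7, 75.2 and 68.3 CPM in Control_water, 70.6, 101 and 94.1 CPM in Control_captopril, 156, 158 and 154 CPM in GN_water and 95.1, 96.0 and 122 CPM in GN_captopril (log2 fold change 0.65 ± 0.09 (SE), adjusted p = 1.14e-04). Xaf1, a promoter of cell death, was at 2.61, 4.25 and 2.84 CPM in Control_water, 2.83, 3.36 and 4.35 CPM in Control_captopril, 7.28, 8.02 and 7.56 CPM in GN_water and 4.85, 4.61 and 5.31 CPM in GN_captopril, and no GN library was as low as a control (log2 fold change 0.87 ± 0.13 (SE), adjusted p = 3.30e-04). Ifi35 was at 11, 13.5 and 13.3 CPM in Control_water, 11.7, 14.3 and 13.7 CPM in Control_captopril, 18.7, 19.0 and 18.2 CPM in GN_water and 15.5, 11.3 and 17.9 CPM in GN_captopril, with GN_captopril replicate 2 among the controls (log2 fold change 0.36 ± 0.10 (SE), adjusted p = 0.0139). Ifi27l2a varied widely within a group, from 6.71 to 41.4 CPM in GN_captopril (log2 fold change 0.96 ± 0.32 (SE), adjusted p = 0.0376), and lost its call in 11 of 19 alternatives. These were DESeq2, both limma analyses and those without any 1 replicate of Control_water, replicate 1 or 2 of Control_captopril or of GN_water, or GN_captopril replicate 3 (0.54 on the log2 scale without the last). Ifi44 did not pass the test and ranged from 12.1 to 19.2 CPM over the 6 control libraries and 11.8 to 19.5 CPM over the 6 GN libraries (log2 change 0.05 ± 0.06 (SE), adjusted p = 0.595).

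**Figure D2:**
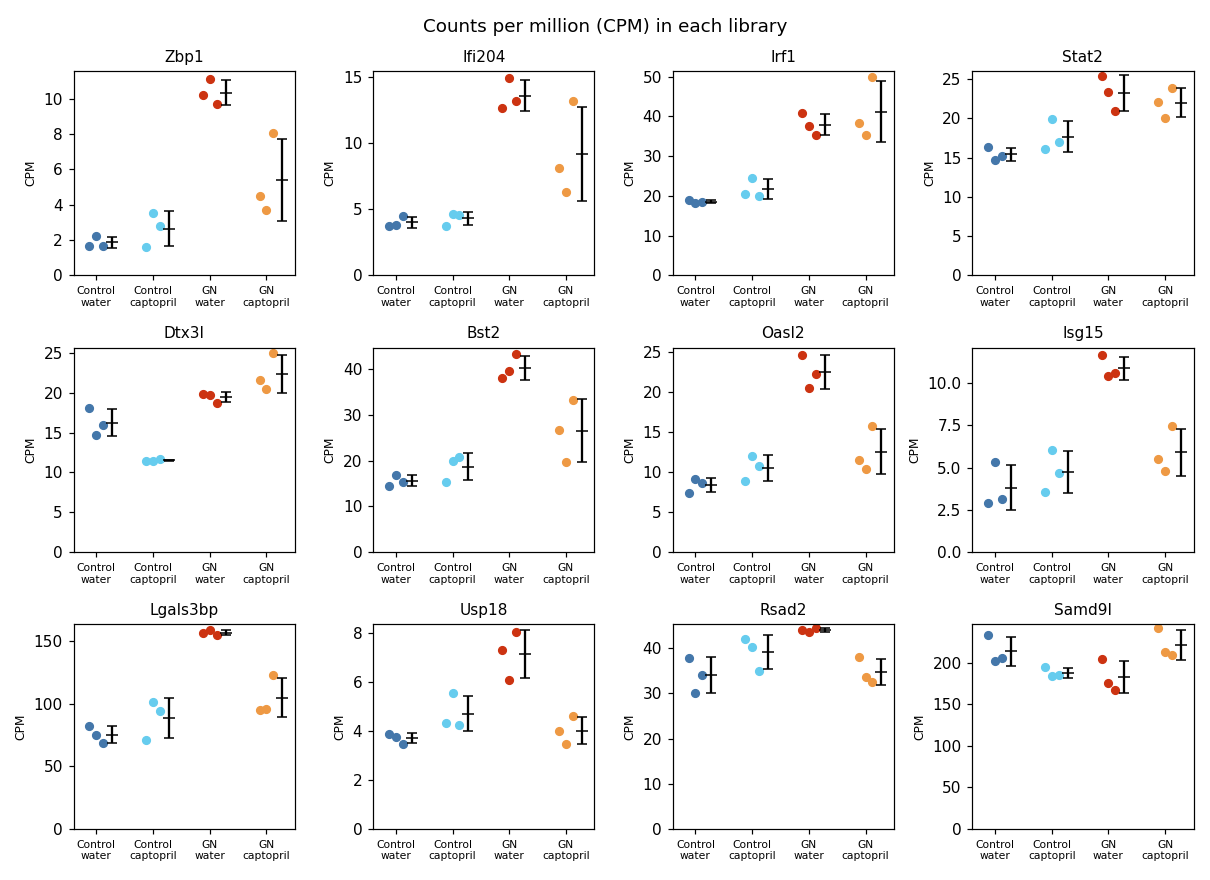
CPM of 12 of the genes in each library (points, 3 per group in order of replicate) with the group mean and SD (black bar) beside them. GN_water is the highest group for Zbp1, Bst2, Oasl2, Isg15, Lgals3bp and Usp18, both GN groups are raised for Irf1, Stat2 and Dtx3l, and the groups of Rsad2 and Samd9l lie within a narrow range.

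The comparison of groups with the same sex-linked RNA asked whether the change was present in each pair alone. GN_water against Control_captopril, both with Xist, gave 31 of 38 genes higher and 0 lower, against 16.9% and 13.2% of all genes, with a median log2 fold change of 0.83 (all genes 0.00). GN_captopril against Control_water, both with Y-linked transcripts, gave 13 higher and 0 lower, against 7.05% and 5.02% of all genes, with a median of 0.50 (all genes -0.02). These pairs share no library. The 13 were also called in the first pair: Irf1, Irf7, Irf9, Stat2, Ddx58, Zbp1, Ifi204, Oasl2, Bst2, Parp9, Dtx3l, Parp14 and Lgals3bp. All 4 transcription factors and all 3 ADP-ribosylation partners were thus called in both pairs, and of the IFIT genes, Isg15 and Usp18 none was called in the second pair. Every GN_water library exceeded every Control_captopril library for 34 genes (25.4% of all genes), and every GN_captopril library exceeded every Control_water library for 21 (14.7%).

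The difference between the pairs was itself tested, and no gene passed. Of the 38, 0 were called higher or lower in the difference (edgeR, 3.34% and 3.17% of all genes), 7 had an unadjusted p under 0.05, and DESeq2 and limma on RPKM also called 0. The change was the larger in the Xist pair for 32 of 38 genes, with a median difference of 0.26 (all genes 0.04). The genes vary together (median pairwise correlation 0.46 for deviations from the group means), so they are not separate observations. The difference was 1.65 ± 0.59 (SE) for Oas1g and 1.55 ± 0.48 (SE) for Oas2 on the log2 scale, and neither passed (adjusted p = 0.111 and 0.0702). Irf1 had a value of -0.34 ± 0.17 (SE) (adjusted p = 0.239). Without GN_captopril replicate 3 the Y-linked pair gave 8 genes higher, and 4 genes were called in the difference, Ifi204, Oas1g, Oasl2 and Trim30a, with log2 values of 0.81, 2.25, 0.70 and 0.71. Without Control_water replicate 3, 1 gene was called in the difference, Oas2 at 1.82 ± 0.42 (SE). Without GN_captopril replicate 2 the Y-linked pair gave 18 genes higher.

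**Figure D3:**
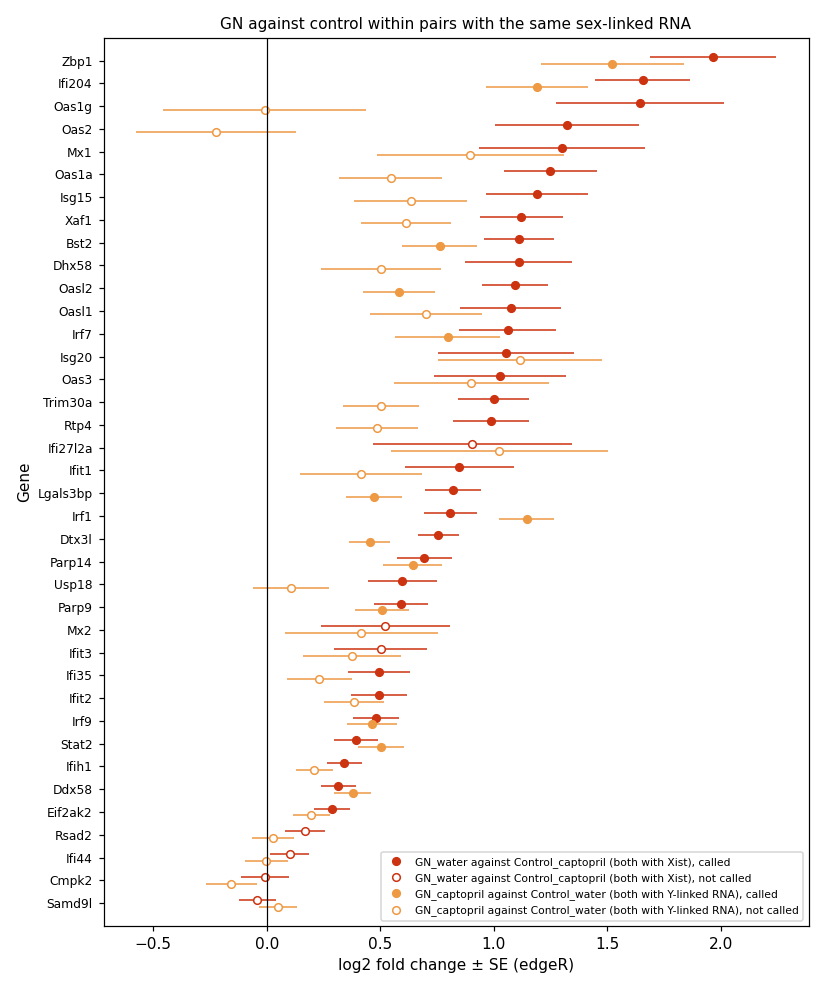
Log2 fold change ± SE (edgeR, horizontal axis) of each of the 38 genes in both pairs that share sex-linked RNA, with filled points for genes called at an adjusted p under 0.05. The GN_water points lie to the right of the GN_captopril points for 32 genes, and their SEs often overlap.

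Between the GN groups, most of the response genes were lower in GN_captopril than in GN_water. Of the 38 genes 27 fell and 1, Samd9l, rose, against 25.5% of all genes called lower and 19.6% called higher, with a median log2 fold change of -0.58 (all genes -0.05). Every GN_water library exceeded every GN_captopril library for 29 of the 38, and for 31.7% of all genes. This comparison also sets Xist libraries against Y-linked libraries, so that treatment and the sex-linked difference cannot be told apart. Markers of several cell types were also called lower in GN_captopril than in GN_water: 10 of 10 for macrophages, 4 of 4 for B cells (median log2 fold change -2.57), 3 of 6 for T and natural killer cells, 2 of 3 for plasma cells, 4 of 5 for endothelial cells (-0.34) and 3 of 4 for podocytes (-0.68). Of 3 plasmacytoid dendritic cell markers tested, 1 was called lower and 0 higher (-0.83). Not all markers fell. The remaining 1 of the endothelial markers was called higher, and of 3 neutrophil markers tested 0 were called. Of 5 proximal tubule markers 1 was called higher and 1 lower. The part of all these markers in the result was not tested. Oas1g changed by -1.66 ± 0.39 (SE) (adjusted p = 0.00393), Oas1a by -1.03 ± 0.21 (SE) (adjusted p = 0.00139), Usp18 by -0.83 ± 0.16 (SE) (adjusted p = 8.72e-04) and Isg15 by -0.89 ± 0.23 (SE) (adjusted p = 0.00644) on the log2 scale. Irf1, Stat2, Parp9 and Dtx3l were not called, with values of 0.11, -0.08, 0.20 and 0.20. Without GN_water replicate 1 or GN_captopril replicate 2 the number called lower was 17 and 16.

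Comparisons by disease within a treatment label carried the same sex-linked contrast in opposite directions, and share their libraries with the comparisons above. GN_water against Control_water gave 36 of 38 genes higher and 1, Samd9l, lower (27.4% and 23.9% of all genes), with a median log2 fold change of 1.05. GN_captopril against Control_captopril gave 8 higher (Irf1, Stat2, Zbp1, Ifi204, Bst2, Samd9l, Parp9 and Dtx3l) and 2 lower (Cmpk2 and Ifi44), against 20.5% and 19.3% of all genes, with a median of 0.23. The share of the 38 genes called higher was near that of all genes. The number called higher was 4 without Control_captopril replicate 1, and 5 without GN_captopril replicate 1 or 3. The interaction of disease and treatment called 27 genes higher and 3 lower (27.1% and 23.6% of all genes). Arithmetically this interaction is the sum of both Xist groups minus the sum of both Y-linked groups, so that these readings of it cannot be told apart. Were the control labels exchanged, the interaction would be the difference between the pairs given above, which called 0 of 38 genes.

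Between the control groups, the share of the genes called higher was near that of all genes. Control_captopril against Control_water gave 5 higher, Irf9, Ddx58, Isg20, Parp14 and Ifi44, and 1 lower, Dtx3l (15.4% and 17.0% of all genes). Isg20 was at 1.86, 1.94 and 1.81 CPM in Control_water, 5.92, 2.21 and 4.35 CPM in Control_captopril, 7.19, 10.9 and 7.76 CPM in GN_water and 3.85, 2.74 and 5.74 CPM in GN_captopril (log2 fold change 1.15 ± 0.35 (SE), adjusted p = 0.0224), and Control_captopril replicate 2 was close to the Control_water libraries. Ifi44 was at 13.5, 13.8 and 12.1 CPM in Control_water, 16.1, 19.2 and 18.2 CPM in Control_captopril, 19.5, 18.3 and 19.5 CPM in GN_water and 13.9, 13.6 and 11.8 CPM in GN_captopril, where both Xist groups lay above both Y-linked groups (log2 fold change 0.43 ± 0.09 (SE), adjusted p = 0.00237). The number called higher was 3 without Control_water replicate 2 or 3, 9 without both libraries rich in adrenal transcripts, and 10 or 11 with limma on log2 RPKM. In the mean levels 26 of the 38 genes had the order GN_water, GN_captopril, Control_captopril and Control_water from high to low.

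Genes of the interferon-gamma-inducible GTPase family, which attack the membranes around intracellular microbes, are given beside the 38 genes. In the GN average 17 of 17 tested GTPases rose, beside 16.3% of all genes. The median log2 fold change of the GTPases was 1.34. They included Gbp2 (log2 fold change 1.55 ± 0.18 (SE), adjusted p = 4.10e-05) and Ifi47 (log2 fold change 1.53 ± 0.18 (SE), adjusted p = 3.55e-05). Gbp4 rose by 0.87 ± 0.12 (SE) and Iigp1 by 1.65 ± 0.23 (SE) on the log2 scale. The Xist pair called 10 of 17 higher and the Y-linked pair 17 of 17, beside 16.9% and 7.05% of all genes. The medians of the GTPases were 0.86 and 1.66. The difference between the pairs called 0 of 17, beside 3.34% of all genes higher and 3.17% lower. GN_water against Control_water called 15 of 17 higher (27.4% of all genes). GN_captopril against Control_captopril called 13 higher and 1 lower, beside 20.5% and 19.3% of all genes. The gene called lower was Gbp3 (log2 fold change -1.95 ± 0.24 (SE), adjusted p = 3.22e-05). Gbp3 averaged 76.1 ± 17.1 and 88.8 ± 11.3 CPM in the Xist groups and 9.03 ± 0.885 and 19.9 ± 8.90 CPM in the Y-linked Control_water and GN_captopril (SD, n = 3). In GN_captopril against GN_water 2 fell (Gbp3 and Gbp9) and 1 rose (Gbp10), beside 25.5% and 19.6% of all genes. The median of the GTPases was -0.02, beside 27 lower and a median of -0.58 for the 38 genes above. Gbp2 averaged 52.1 ± 6.39 CPM in GN_water and 51.6 ± 24.3 CPM in GN_captopril, and Iigp1 42.6 ± 6.33 and 53.9 ± 31.4 (SD, n = 3). The same setting gave 10.9 ± 0.668 and 5.92 ± 1.39 CPM for Isg15. Whether both lists differ from one another was not tested. Several GTPases are near copies (Tgtp1 and Tgtp2, Gbp6 and Gbp10), so their reads may be divided.

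**Figure D4:**
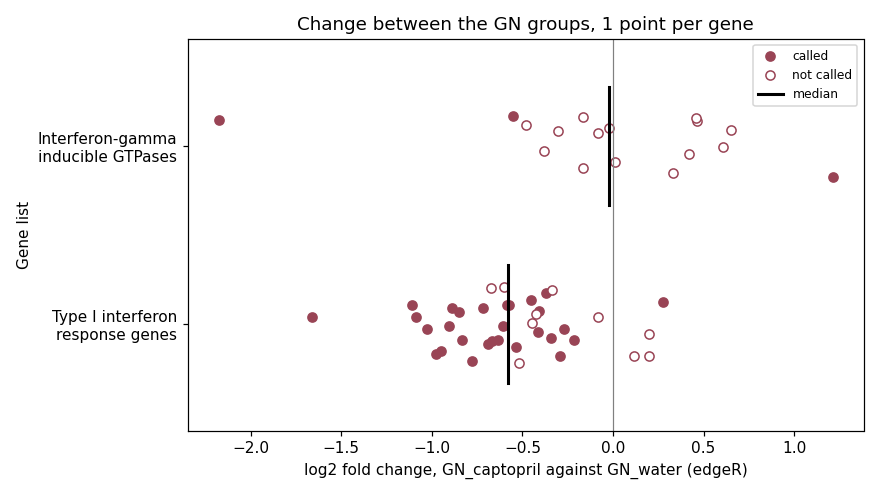
Log2 fold change of GN_captopril against GN_water (edgeR, horizontal axis) for the 38 type I interferon response genes and 17 interferon-gamma-inducible GTPases, 1 point per gene, filled where called, with the median of each list as a black line. The medians are -0.58 and -0.02, and vertical position within a list has no meaning.

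Ligands of the pathway were hardly counted. Of 21 interferon genes listed, 19 had no count in any library, all interferon-alpha genes and Ifnb1 among them, where a count of 0 allows up to 0.123 to 0.215 CPM depending on the library (3 counts, counting error only). Ifng had 0 to 3 counts per control library and 1 to 7 per GN library. Ifnz had 0 counts in every control library and 0 to 3.89 per GN library, and neither gene was tested. Receptors and signal carriers were well expressed. Of 11 such genes 8 rose in the GN average and 0 fell, with a median of 0.33 (16.3% and 14.6% of all genes). They included both chains of the interferon-gamma receptor, Ifngr1 (log2 fold change 0.54 ± 0.06 (SE), adjusted p = 1.88e-05), Ifngr2 (log2 fold change 0.48 ± 0.06 (SE), adjusted p = 9.05e-05), and the type I receptor chain Ifnar2 (log2 fold change 0.42 ± 0.06 (SE), adjusted p = 3.09e-04). Ifnar1 rose by 0.20 ± 0.03 (SE), and the kinases Jak1, Jak2 and Tyk2 were not called.

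Of 16 sensing genes upstream of interferon, 11 rose and 2 fell in the GN average, beside 16.3% and 14.6% of all genes, so that the number that fell was near the background. Tmem173, which encodes the DNA-sensing adaptor STING, rose by 1.23 ± 0.09 (SE) on the log2 scale (adjusted p = 1.05e-06), with means of 3.91 ± 0.321, 4.83 ± 0.432, 14.8 ± 0.969 and 7.09 ± 0.945 CPM (SD, n = 3) in Control_water, Control_captopril, GN_water and GN_captopril. Irf5 and Irf8, factors of myeloid cells, rose by 1.07 ± 0.08 (SE) and 0.71 ± 0.06 (SE), and the kinase Ikbke by 1.06 ± 0.11 (SE). Those that fell were Mavs, the adaptor of the RNA sensors (log2 change -0.25 ± 0.05 (SE), adjusted p = 0.00186), and the kinase Tbk1 (-0.15 ± 0.04 (SE), adjusted p = 0.0189). Of 11 genes that restrain the response or attach Isg15 to proteins, 7 rose and 0 fell. They included Socs3, an inhibitor of cytokine signalling (1.66 ± 0.15 (SE)), the nucleotide-degrading enzyme Samhd1 (0.61 ± 0.08 (SE)), the Isg15-activating enzyme Uba7 (0.71 ± 0.11 (SE)) and the RNA-editing enzyme Adar (0.28 ± 0.05 (SE)). Of 48 further interferon-stimulated genes tested, 39 rose and 0 fell, with a median of 0.64. Apobec3 (1.34 ± 0.09 (SE)), Ly6e (1.12 ± 0.08 (SE)), the chemokine Ccl5 (2.56 ± 0.23 (SE)) and Ms4a4c (1.74 ± 0.17 (SE)) had the smallest adjusted p-values.

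Libraries of a group differed along the whole set. Over the 38 genes, the median of the log2 deviation from each gene's mean over 12 libraries was 0.58 to 0.69 in GN_water, -0.20 to 0.32 in GN_captopril, -0.43 to -0.02 in Control_captopril and -0.55 to -0.32 in Control_water, while the same median over all genes lay between -0.02 and 0.02. In GN_captopril replicate 3 was the highest of its group for 32 genes and replicate 2 for 0. The macrophage markers summed to 545, 557 and 1080.1 CPM in the 3 GN_captopril libraries, and the adipocyte markers to 47.8, 159 and 368 CPM. The T and natural killer cell markers summed to 20.3, 24.0 and 25.3 CPM, and the adrenal cortex markers to 1.13, 19.3 and 119 CPM. GN_captopril replicate 3 also had the lowest total of the 12 libraries, 14.2 M counts. The part of these markers and of depth in the spread was not tested. In the controls replicate 2 of Control_captopril was the highest of its group for 24 genes. Across the 12 libraries, which differ in group and depth, the median Pearson correlation between pairs of the 38 genes was 0.78. It was 0.46 for deviations from the group means. Samd9l stood apart, with a median correlation of -0.43 with the others.

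Markers of most other leukocytes were also higher with disease in the GN average, and their part in the results was not tested. Of all genes tested, 16.3% were called higher and 14.6% lower in the GN average. The Xist pair called 16.9% of all genes higher and 13.2% lower, and the Y-linked pair 7.05% higher and 5.02% lower. The 6 T and natural killer cell markers, all called higher, summed to 4.04 to 8.85 CPM in controls, 31.2 to 40.2 CPM in GN_water and 20.3 to 25.3 CPM in GN_captopril. Plasma cell markers, of which all 3 tested were called higher, summed to 2.58 to 11.8 CPM in controls, 193 to 659 CPM in GN_water and 42.1 to 104 CPM in GN_captopril. All 3 neutrophil markers tested were called higher, in the GN average and in each pair. Of the 4 B cell markers 3 were called higher in the GN average, 4 in the Xist pair and 0 in the Y-linked pair. Plasmacytoid dendritic cells, known as a strong source of type I interferon, have 5 markers in the list, which summed to 2.18 to 3.64 CPM in controls, 4.15 to 8.22 CPM in GN_water and 3.16 to 3.39 CPM in GN_captopril, the last within the control range. Of the 3 such markers tested, Spib alone was called higher. Siglech, the most specific of them, was at most 0.404 CPM in controls and 0.288 CPM in GN libraries. Of the 5 proximal tubule markers 4 were called lower in the GN average, 2 in the Xist pair and 0 in the Y-linked pair. Their sums were 8371 to 8607 CPM in Control_captopril and 10668 to 11913 CPM in Control_water. In GN_water they were 7211 to 7755 CPM, below every control library. In GN_captopril they were 8736 to 10152 CPM, between the ranges of both control groups. Every GN_captopril library thus lay below every library of Control_water, which shares its Y-linked RNA.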

How the data were processed

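RNA of 12 kidney cortex libraries was measured by stranded mRNA sequencing. The authors deposited expected counts (estimated reads per gene symbol, not scaled for depth, 86.4% of entries whole) and RPKM values. Bowtie2, Partek and the mm10 build are named per the submitters' processing notes, without roles, versions or annotation. The length implied by the deposited RPKM lay within 10% of the genomic span for 37 of the 38 genes, so levels were compared between genes by CPM per kilobase of GENCODE M21 exons.

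Counts were rounded, filtered with filterByExpr (minimum count 10, total 15, which left 14618 genes), given TMM factors and modelled as 4 group means over all 12 libraries by the quasi-likelihood method of edgeR 4.0.16 in R 4.3.3. Benjamini-Hochberg adjustment ran over every gene tested, with a threshold of 0.05. The SE is the log2 fold change over the square root of F. DESeq2 1.42.0 and limma 3.58.1 (log2 of RPKM plus 0.1 or 0.01) served as alternatives, with another scaling, no filter, libraries left out, a replicate block and only the compared groups. The script was tested on simulated data. Promoters and positions are RefSeq's (GRCm38.p6, the mm10 coordinates). The genes and lists were chosen with earlier results of these data known. Values by library are given for up to 3 genes per role with the smallest adjusted p in the GN average, and every gene not called is named. Up to 4 called genes per other pathway list are named by the same order, and 1 gene that met this rule is not reported here. Isg20 and Ifi44 by library, the further called genes given with a fold change and the genes named between GN groups and between pairs were named after their values were seen. Plots used matplotlib 3.10.9 (Python 3.11.15).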

Additional observations from a re-analysis of the deposited data

Results flagged for a closer look

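The change with GN differed between the treatment labels, by the interaction term of the edgeR model, for 30 of the 38 genes. Of these 27 were called higher and 3 lower, beside 27.1% and 23.6% of all genes tested, so calls in this contrast were common. The values below are GN_water minus Control_water less GN_captopril minus Control_captopril on the log2 scale, and the same sum separates the Xist from the Y-linked libraries. Among the transcription factors and sensors the values were 1.11 for Irf7, 0.89 for Irf9, 0.65 for Ddx58, 0.41 for Ifih1, 1.20 for Dhx58 and 1.46 for Zbp1. The IFIT genes had 1.52 for Ifit1, 0.72 for Ifit2 and 0.78 for Ifit3. Synthetase genes had 1.35 for Oas1a, 1.67 for Oas1g, 1.23 for Oas3, 0.97 for Oasl1 and 1.18 for Oasl2. Isg15 had 1.22 and Usp18 1.17. Further effectors had 0.34 for Eif2ak2, 0.54 for Rsad2, 0.59 for Cmpk2, 2.24 for Isg20, 0.87 for Bst2, 1.06 for Trim30a and 0.94 for Rtp4. Parp14 had 0.77, Ifi44 0.97, Xaf1 0.76 and Lgals3bp 0.82. The 3 values below 0 were -0.46 for Samd9l, -0.48 for Parp9 and -0.70 for Dtx3l. If the labels of the control groups were exchanged, which Ren1 and the sex-linked RNA leave in doubt, the interaction would be the difference between the marker-matched pairs, which called 0 of the 38 genes. No cause was tested.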

How the results depend on the processing

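Of the 38 genes, 30 kept their call and direction in the GN average under all 19 alternatives, and the exceptions were Ifi27l2a, Ifit1, Ifit3, Mx2, Oas1g, Oas2, Samd9l and Usp18. Samd9l, near 0 in the main analysis, turned sign to -0.0031 with RLE scaling and with DESeq2 and -0.0028 with no filter on low counts, and when single libraries were left out to -0.016, -0.011, -0.0044, -0.0014, -0.065, -0.0010 and -0.031 (range over all 12 such analyses -0.065 to 0.038). Leaving out 1 library at a time gave 28 to 32 genes higher in the GN average, 22 to 33 in GN_water against Control_captopril, 8 to 18 in GN_captopril against Control_water, 32 to 36 in GN_water against Control_water, 4 to 11 in GN_captopril against Control_captopril, 16 to 29 lower in GN_captopril against GN_water, 3 to 6 higher in Control_captopril against Control_water, 24 to 32 called in the interaction and 0 to 4 in the difference between the pairs. Without both libraries with the most adrenal transcripts the number was 7 in GN_captopril against Control_water, 4 in GN_captopril against Control_captopril, 9 in Control_captopril against Control_water and 1, Trim30a, in the difference between the pairs. Limma on log2 RPKM gave 5 in GN_captopril against Control_captopril with either pseudocount, and 10 or 11 in Control_captopril against Control_water with a pseudocount of 0.1 or 0.01. The causes were not tested. The numbers in the titles did not pair the libraries: deviations from group means of libraries with the same number correlated between -0.20 and 0.25, and 4 of 12 libraries correlated best with their own number. A replicate block gave 30 genes higher in the GN average and 29 called in the interaction. Limma alone called Oas2 (adjusted p = 0.0310 with a pseudocount of 0.1) and Mx2 (adjusted p = 0.0409 with 0.01). Genes near 1 CPM (Oas1g, Oas2, Oas3, Mx1 and Mx2) rest on few counts per library, and their SEs are, with those of Ifi27l2a and Isg20, the widest of the 38.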
